A study of Mus musculus with 3 samples.

Results

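Heat shock proteins and chaperones are described here in mouse CD4+ CD8+ DP (double-positive) thymocytes, developing T cells that carry both of these coreceptors. The genes were taken by symbol: those whose names start with Dnaj, Hspa, Hspb, Hsph or Hsp90, the chaperonin genes Tcp1 and Cct2 to Cct8 with their relatives, and Hspd1, Hspe1, Hsf1 and Hsf2. Of 19938 genes with a probe set of their own, 83 met this rule, through 106 probe sets, and the brightest probe set stood for a gene that had several. Hsf1, Hspa1b and Hsp90ab1 had no probe set with a single symbol and were not analysed here. The rule goes by name alone, so it also takes in Hspb11, an intraflagellar transport protein, and Hspbp1 and Hspbap1, which are named as partners of heat shock proteins.

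Expression was measured on 3 Affymetrix arrays, each hybridised with total RNA of 1 cohort. A cohort was a set of C57BL/6 littermates (WT) at an age of 5 to 6 weeks, and the labels do not give the number of animals in it. DP cells were enriched with CD8 beads followed by CD4 beads, and as bulk RNA the values cannot tell fewer cells of a type from less RNA per cell. The only group is DP, with n = 3 arrays, and the comparisons are between gene groups and between cohorts. All 10 DP markers fixed for the check, among them Cd4, Cd8a and Rag1, lay above background on every array.

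Heat shock proteins bind unfolded or newly made proteins and help them fold. Hsp70 proteins work in cycles of ATP hydrolysis that J proteins (the Dnaj genes) start, Hsp90 acts late on kinases and receptors, and the chaperonins enclose their clients in a chamber. Some of these genes are transcribed steadily, whereas others are induced when unfolded protein accumulates, by heat shock factor 1 for the cytosol and by the unfolded protein response for the endoplasmic reticulum (ER).

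Promoters of some members that hold a stress element are shown first, because the members differ in which element they carry. Those of Dnajb1, searched for the heat shock element, and of Dnajb9, searched for the ER stress element, are not printed. Neither had a match in the 250 bases before the gene start. Sequences are from RefSeq on GRCm38.p6, read 5′ to 3′ on the strand of the gene and ending at the base before its start, except for the shorter stretch of Hspe1. Capitals mark the heat shock element of 2 units (GAANNTTC or TTCNNGAA) in the first 3 and the ER stress element (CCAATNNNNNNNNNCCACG, on either strand) in the others.
Hspa1a, chr17:34972157-34972406, minus strand: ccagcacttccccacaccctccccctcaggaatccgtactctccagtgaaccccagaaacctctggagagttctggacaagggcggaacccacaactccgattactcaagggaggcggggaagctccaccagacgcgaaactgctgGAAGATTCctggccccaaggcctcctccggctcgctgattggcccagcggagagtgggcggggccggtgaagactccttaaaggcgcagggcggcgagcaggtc
Hsph1, chr5:149636337-149636586, minus strand: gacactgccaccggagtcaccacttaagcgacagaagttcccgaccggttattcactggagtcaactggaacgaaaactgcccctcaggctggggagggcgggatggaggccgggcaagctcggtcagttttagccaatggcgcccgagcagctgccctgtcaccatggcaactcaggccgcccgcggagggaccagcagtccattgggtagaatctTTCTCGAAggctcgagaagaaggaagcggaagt
Hspe1, chr1:55088053-55088082, plus strand: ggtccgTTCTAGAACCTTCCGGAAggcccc
Hspa5, chr2:34771840-34772089, plus strand: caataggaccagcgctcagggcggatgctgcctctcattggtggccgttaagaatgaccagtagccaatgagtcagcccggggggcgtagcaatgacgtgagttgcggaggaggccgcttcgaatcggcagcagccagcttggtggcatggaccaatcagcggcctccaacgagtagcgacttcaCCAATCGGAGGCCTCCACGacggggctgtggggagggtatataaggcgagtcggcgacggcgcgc
Hsp90b1, chr10:86705445-86705694, minus strand: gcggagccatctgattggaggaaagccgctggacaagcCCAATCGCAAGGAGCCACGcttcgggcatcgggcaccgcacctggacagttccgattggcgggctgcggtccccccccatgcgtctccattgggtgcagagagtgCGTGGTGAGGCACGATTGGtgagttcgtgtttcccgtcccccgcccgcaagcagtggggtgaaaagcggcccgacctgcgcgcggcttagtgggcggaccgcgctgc
Dnajc3, chr14:118937682-118937931, plus strand: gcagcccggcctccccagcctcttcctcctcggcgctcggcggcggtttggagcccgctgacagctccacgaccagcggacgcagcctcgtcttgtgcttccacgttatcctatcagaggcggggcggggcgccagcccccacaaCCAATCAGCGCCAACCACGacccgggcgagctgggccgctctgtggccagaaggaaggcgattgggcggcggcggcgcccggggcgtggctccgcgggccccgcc

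The letters were counted over RefSeq windows that also include the first bases of each transcript. Of 69 members with such a window, 19 (27.5%) held a heat shock element of 2 units, against 17.0% of all 27025 genes with one. On the inducible list it was 6 of 7 genes, Hspa1b included but not Dnajb1, and on the constitutive list 3 of 11. The element of 3 units, in which GAANNTTC is followed by NNGAA or, on the other strand, TTCNNGAA by NNTTC, was found in 4 members, Hsph1, Hspd1, Hspe1 and Dnajb6, which is 5.80% against 0.662% of all genes. That of Hsph1 is not contained in the letters printed for it, which hold 1 match of 2 units. The stretch printed for Hspe1, in which 3 matches of 2 units overlap, is held by the windows of both Hspd1 and Hspe1, whose transcripts start near each other on opposite strands. The ER stress element was found in Hspa5, Hsp90b1 and Dnajc3, 3 of the 9 ER genes with a window, and in 0.137% of all genes. Outside the members, 4 of 11 other genes of the unfolded protein response with a window held it, Calr, Canx, Creld2 and Pdia6. These matches are descriptions of the letters and not of binding, the ER element was searched for after the expression values were known, and it was not found in these letters in the Dnajb9 window.

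Most chaperone genes were expressed in DP thymocytes. The background limit of each array was set from 109 probe sets for genes of other organs, as their 95th percentile, and was 7.45, 7.50 and 7.42 (log2) on arrays 1, 2 and 3. On every array 56 of 83 members (67.5%) exceeded it, against 40.6% of all genes, 25 members exceeded it on none, and Dnajb5 and Dnajc25 on some. The median level of the members was 8.58, against 6.85 for all genes. Because the signal also depends on each probe set's affinity, levels are compared between lists and between arrays, and not between single genes.

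The constitutive cytosolic list was detected throughout. All 13 measured genes lay above background on every array, with a median level of 10.64. Hspa8, the Hsc70 protein that cells make without stress, had 12.79, 12.67 and 12.63 on arrays 1, 2 and 3. The 8 subunits of the cytosolic chaperonin, which folds actin and tubulin, had a median of 10.67, and Cct4 had 10.51, 10.50 and 10.50. Tcp1, the alpha subunit, had 11.03, 11.10 and 11.26, and Cct3 had 10.48, 10.18 and 10.34. Of the 13, 9 were highest on array 1 and 3 lowest there, namely Tcp1, Cct2 (12.00, 12.20 and 12.22) and the J protein gene Dnajc7 (10.86, 11.15 and 11.11). Hspa4, an exchange factor of the Hsp110 family, had 10.27, 10.09 and 10.17, and Hspa14, a ribosome-associated Hsp70, had 9.88, 9.86 and 9.94. The chaperonin subunit genes Cct5 (11.05, 10.90 and 10.94), Cct6a (10.70, 10.50 and 10.53), Cct7 (10.72, 10.53 and 10.66) and Cct8 (10.77, 10.64 and 10.70) and the J protein gene Dnaja2 (10.24, 10.05 and 10.08) each had the highest value on array 1.

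The inducible list was split. Of 7 measured genes, 5 lay above background on every array and 2 on none, with a list median of 10.09. Hspa1a, the stress-inducible Hsp70, had 7.09, 6.70 and 6.79 on arrays 1, 2 and 3, under the limit on each. It is nearly identical to Hspa1b, so its signal cannot be assigned to 1 copy with certainty. Hspb1, the small heat shock protein Hsp27, had 5.70, 5.79 and 5.77 and was also below background. In contrast, Hsp90aa1, the inducible Hsp90, had 12.22, 12.15 and 12.22, and Dnaja1, a J protein partner of Hsp70, had 10.46, 10.51 and 10.49. That Dnaja1 probe set lies in number order among genes of chromosome 5, whereas Dnaja1 is on chromosome 4. The Dnaja1 probe set among genes of chromosome 4 had 8.91, 8.91 and 9.14. Dnajb1, the Hsp40 that works with Hsp70, had 10.68, 10.44 and 10.42. Hsph1, an Hsp110 exchange factor, had 9.06, 8.85 and 8.87, and Dnajb4 had 10.28, 9.93 and 10.05. Hsf2, the 1 heat shock factor measured, had 8.83, 8.54 and 8.66.

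**Figure D1:**
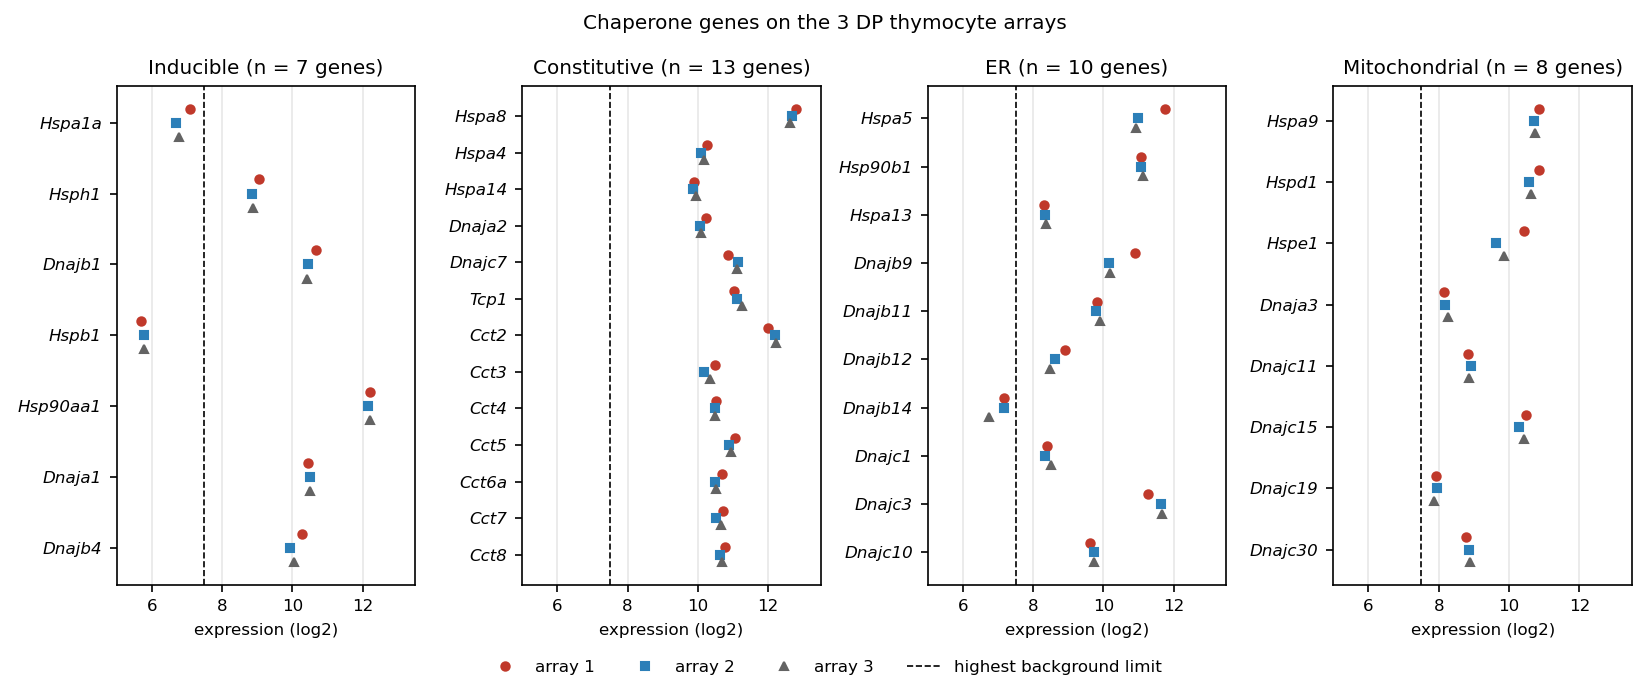
Log2 expression of the genes of 4 chaperone lists on arrays 1, 2 and 3, 1 point per array, with the highest of the 3 background limits (7.50) as a dashed line. Hspa1a, Hspb1 and Dnajb14 lie left of the line on every array, and Hspa5, Dnajb9 and Hspe1 are set apart on array 1.

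The compartment lists were detected as well. Of 10 ER genes, 9 lay above background on every array, with a median of 9.76, and Dnajb14 on none (7.16, 7.17 and 6.74). Hsp90b1, the ER form of Hsp90, had 11.08, 11.07 and 11.13. All 8 mitochondrial genes were above the limit on every array (list median 9.42). Hspa9, the mitochondrial Hsp70, had 10.84, 10.71 and 10.74, and Dnaja3, its J protein partner, had 8.14, 8.19 and 8.26. Dnajc19, whose yeast homologue acts at the import motor of the inner membrane, had 7.93, 7.96 and 7.87.

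J proteins with other duties were mostly present. Among 11 listed, 9 lay above background on every array, with a median of 8.97, and Dnajb2 and Dnajc27 on none. Dnajc9, a histone chaperone, had 10.20, 10.09 and 10.16, and Dnajc8, which is tied to splicing, had 10.20, 10.04 and 10.35. Dnajc2, a ribosome-associated J protein, had 8.38, 8.49 and 8.37, and Dnajc21, which acts in ribosome assembly, had 8.63, 8.50 and 8.62. Dnajc5, the cysteine string protein, had 10.41, 10.45 and 10.45. Dnajc13, which acts on endosomes, was represented by 15 probe sets with means from 7.57 to 10.44, of which 14 lay above background, so its level depends on the probe set.

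Genes listed as restricted to muscle, testis or nerve were mostly at background. Of 16, 14 lay above background on no array and 2 on every array. One was Dnajc6, which encodes auxilin, the J protein of the nervous system that uncoats clathrin vesicles, with 10.05, 9.99 and 10.06. The other was Hspb6, a small heat shock protein of muscle, near the limit with 7.66, 7.79 and 7.66. The testis genes Hspa1l (5.75, 5.47 and 5.90) and Hspa2 (7.16, 6.89 and 6.74) and the muscle gene Hspb7 (5.94, 6.07 and 5.98) were below it. The chaperonin relative Cct6b had 5.12, 4.98 and 4.96.

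The cohorts were alike in most chaperone genes, and array 1 stood apart in the series as a whole. Over 28939 probe sets, array 1 correlated with each other array at a Pearson's r of 0.993, and arrays 2 and 3 with each other at 0.996, a description across genes. Sex-linked genes differed too, with 11.65, 5.40 and 5.68 for Xist and 4.21, 10.29 and 10.08 for the Y-linked Eif2s3y on arrays 1, 2 and 3. On array 1, 21 immediate-early genes such as Fos (9.39, 7.86 and 8.27) were higher by a mean of 0.73 than their own 3-array means, with 19 of 21 highest there. The DP markers were lowest there in 9 of 10 cases, with summed log2 levels of 115.56, 117.98 and 117.87 on arrays 1, 2 and 3. Of the 10 myeloid and dendritic markers, 8 were highest there, with summed levels of 74.22, 67.10 and 71.05. Among them Adgre1, Csf1r, Itgam, Itgax and Lyz2 were below background on every array, and Cd68 (7.45, 6.99 and 7.27) reached the limit on array 1 only. The class II genes of this marker list, H2-Ab1 (9.26, 7.91 and 8.50) and H2-Eb1 (8.82, 7.77 and 8.40), were above background on every array, and Cd74 (8.83, 7.27 and 8.05) and H2-Aa (8.44, 6.75 and 7.81) on arrays 1 and 3. No B cell marker (of 5) and no thymic epithelial marker (of 6) lay above background on every array. Of all genes, 34.5% were highest on array 1 and 39.3% were lowest there, and 3.96% had an unadjusted p under 0.05 in the limma variance test. The epithelial markers were lowest on array 1 in 5 of 6 cases, with summed levels of 38.25, 39.95 and 40.80, and 4 had an unadjusted variance p under 0.05. Of these, Krt8 (6.70, 6.83 and 7.55) and Krt18 (6.87, 6.90 and 7.58) exceeded background on array 3. The sex-linked, immediate-early, DP marker and class II differences coincide in array 1, a single cohort. Their parts in the chaperone values cannot be told apart and were not tested.

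Counted over all members, array 1 was close to the series as a whole. It was the highest of the arrays for 33 of 83 members (39.8%), against 34.5% of all genes, and the lowest for 30 (36.1%), against 39.3%. Among members above background it was the highest for 24 of 56 (42.9%), against 38.8% of all such genes. The median SD over arrays was 0.116 for members and 0.111 for all genes. Of the 56 members above background, 43 (76.8%) ranged by less than 0.3 log2 units over the arrays, against 79.4% of all such genes. No member was called as varying by more than probe sets of its level after adjustment (limma variance test against a robust mean-dependent prior, Benjamini-Hochberg adjusted p under 0.05), where 6 of all probe sets (0.0207%) were. With 3 arrays this test misses large differences. It called none of the 21 immediate-early genes, among them Gadd45b (10.65, 8.28 and 8.40 on arrays 1, 2 and 3, adjusted p = 0.195). The lack of a call therefore does not show that a member was alike between cohorts. At an unadjusted p under 0.05 there were 4 members (4.82%), against 3.96% of all genes, a share near the background.

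Both the inducible and the constitutive list were slightly higher on array 1 than on array 2. The inducible list deviated from its 3-array mean by 0.10, -0.06 and -0.03 log2 units on arrays 1, 2 and 3, and the constitutive list by 0.03, -0.04 and 0.01. The difference, inducible minus constitutive, was 0.07, -0.02 and -0.04, a range of 0.11 over the arrays, with no test. Of the inducible genes, 4 of 7 (57.1%) were highest on array 1, as were 9 of 13 constitutive genes (69.2%), against 34.5% of all genes and 38.8% of those above background. The largest inducible differences between array 1 and array 2 were 0.39 for Hspa1a, below background, and 0.35 for Dnajb4. Without array 1 the range of the difference was 0.02. The deviation of the immediate-early genes on array 1 exceeded that of the inducible chaperones by 0.63, a description of these arrays with no test.

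**Figure D2:**
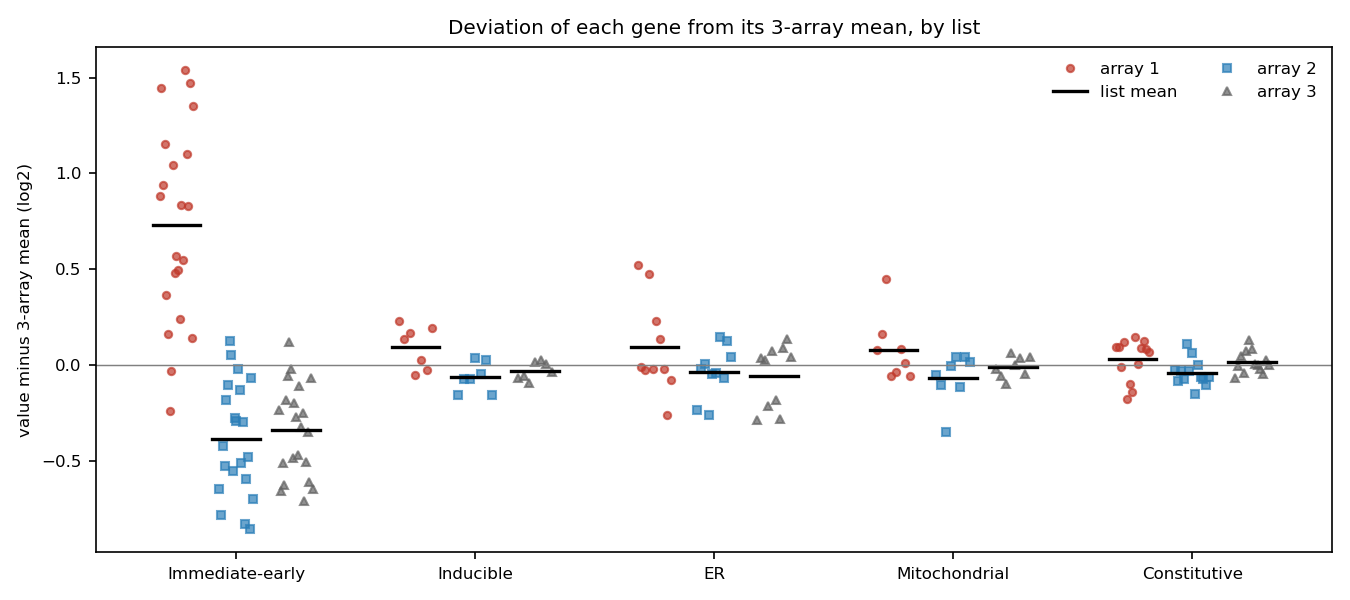
Each gene's value minus its own 3-array mean (log2), by list and array, with points for genes and bars for list means. The immediate-early genes reach a mean of 0.73 on array 1, whereas the means of the 4 chaperone lists lie between -0.07 and 0.10 on every array.

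Single genes of the ER and the mitochondrion were set apart on array 1. Hspa5, which encodes BiP, the main Hsp70 of the ER, had 11.74, 10.98 and 10.93 on arrays 1, 2 and 3. It was 1.69-fold higher on array 1 than on array 2 and 1.75-fold higher than on array 3, with an SD of 0.45 (limma variance test, unadjusted p = 0.00538, adjusted p = 0.900). Dnajb9, an ER J protein that acts with BiP, had 10.89, 10.15 and 10.20, with an SD of 0.41 (unadjusted p = 0.00836, adjusted p = 0.987). Hspe1, the Hsp10 lid of the mitochondrial chaperonin, had 10.42, 9.62 and 9.87, with an SD of 0.41 (unadjusted p = 0.00851, adjusted p = 0.987). None of these 3 genes passed the adjusted threshold, and for each of them arrays 2 and 3 lay closer to each other than to array 1. Fitted on 2 arrays only, Hspa5 passed without array 2, all 3 genes passed without array 3 and none passed without array 1. The first 2 of these fits called 1 and 3 of 83 members, beside 300 and 303 of 28939 probe sets. With all arrays 6 probe sets were called. The prior degrees of freedom were infinite in the 2-array fits, so their calls are not comparable with those of the main fit.

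These 3 genes (3.61% of members) exceeded both of the other arrays by at least 0.5 log2 units on array 1, against 1.6% of all genes. That size was chosen after the values were seen. Among genes above background it was 3 of 56 members (5.36%), against 1.95% of all. The other member with an unadjusted p under 0.05 was Hspb11, with 7.48, 7.79 and 8.08 (unadjusted p = 0.0446, adjusted p = 0.988), lowest on array 1 and close to background.

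**Figure D3:**
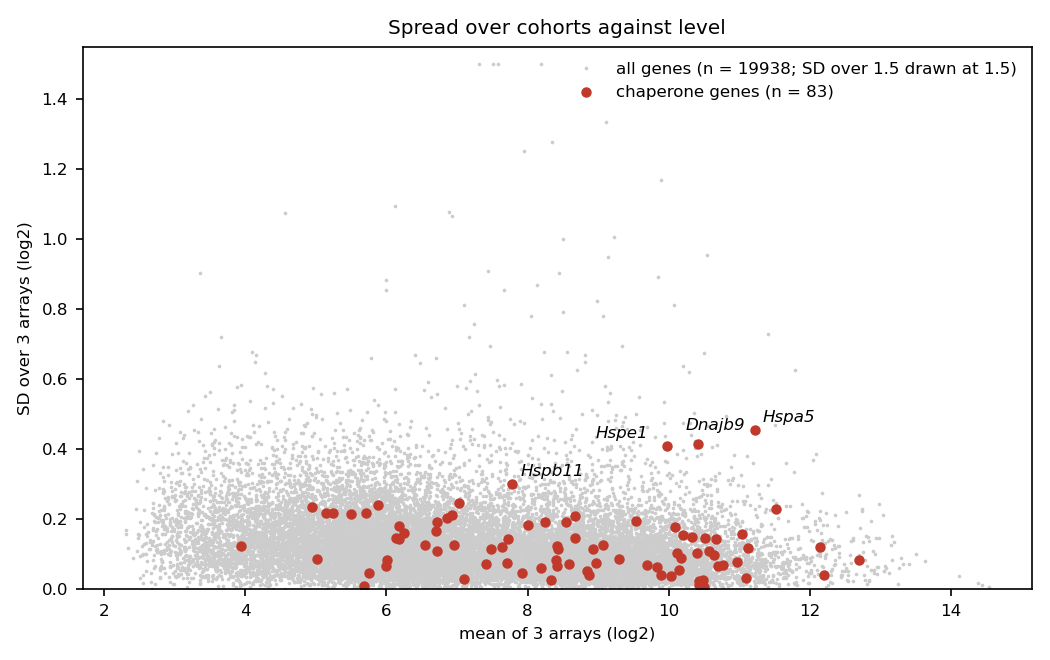
SD over the 3 arrays against the mean level (both log2), with 19938 genes in grey and the 83 chaperone genes in red. Most chaperone genes lie within the grey cloud, and Hspa5, Dnajb9, Hspe1 and Hspb11 are named.

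The partner of Hspe1 differed by less. Hspd1, the Hsp60 chamber of the mitochondrial chaperonin, had 10.84, 10.57 and 10.62 on its brightest probe set. That probe set lies, in number order, among genes of chromosome 11, whereas Hspd1 is on chromosome 1. The Hspd1 probe set among genes of chromosome 1 had 9.47, 9.05 and 8.97, a difference of 0.42 and 0.50 from arrays 2 and 3. The second probe set of Hspe1 had 10.38, 9.53 and 9.74, close to the first. It lies in number order among genes of chromosome 18, whereas Hspe1 is on chromosome 1. Hspd1 and Hspe1 were both highest on array 1 on each of their probe sets, including those among genes of other chromosomes. Of the other mitochondrial genes, Hspa9 and Dnajc15 were highest on array 1, and Dnaja3, Dnajc11, Dnajc19 and Dnajc30 were not.

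The ER genes differed among themselves. The list deviated by 0.09, -0.04 and -0.06 on arrays 1, 2 and 3. Without Hspa5 and Dnajb9, which were left out with their values known, its deviation on array 1 was -0.01. Of the 10, 3 were highest on array 1, a share near the 34.5% of all genes. The third was Dnajb12 (8.90, 8.63 and 8.49), a J protein of the ER membrane. Dnajc3, the p58IPK protein that restrains the kinase PERK, had 11.26, 11.65 and 11.66, lowest on array 1. Its 2 probe sets gave identical values, so they are not independent. Hsp90b1, Hspa13 (8.31, 8.34 and 8.36) and Dnajb11 (9.81, 9.78 and 9.90), an ER-luminal J protein, ranged by no more than 0.12. Dnajc10, an ER J protein that reduces disulfides, had 9.61, 9.73 and 9.73, and Dnajc1 had 8.39, 8.34 and 8.50. Of the 3 genes with an ER stress element in the printed letters, 1 was highest on array 1, 1 was lowest there and Hsp90b1 ranged by 0.06.

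Of 14 other genes of the unfolded protein response, 9 (64.3%) were highest on array 1, against 34.5% of all genes, and 4 were lowest there, beside 39.3% of all genes. In the limma variance test 3 (21.4%), against 3.96% of all genes, had an unadjusted p under 0.05 but an adjusted p of 0.988. These were Atf4, the transcription factor of the integrated stress response, with 9.77, 9.11 and 9.23, Ddit3, its target CHOP, with 8.56, 8.03 and 7.96, and Calr, the lectin chaperone calreticulin, with 11.01, 10.48 and 10.46. Each was at least 0.5 higher on array 1 than on the other arrays, as were 1.6% of all genes. Hyou1, an ER Hsp110, had 9.23, 9.18 and 9.20. Xbp1, a transcription factor of the response, had 9.90, 10.15 and 10.10, lowest on array 1. The others lowest there were Canx (11.39, 11.44 and 11.52), Pdia3 (11.01, 11.21 and 11.29) and Pdia6 (9.88, 10.07 and 10.03). The list's mean deviation on array 1 was 0.10.

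**Figure D4:**
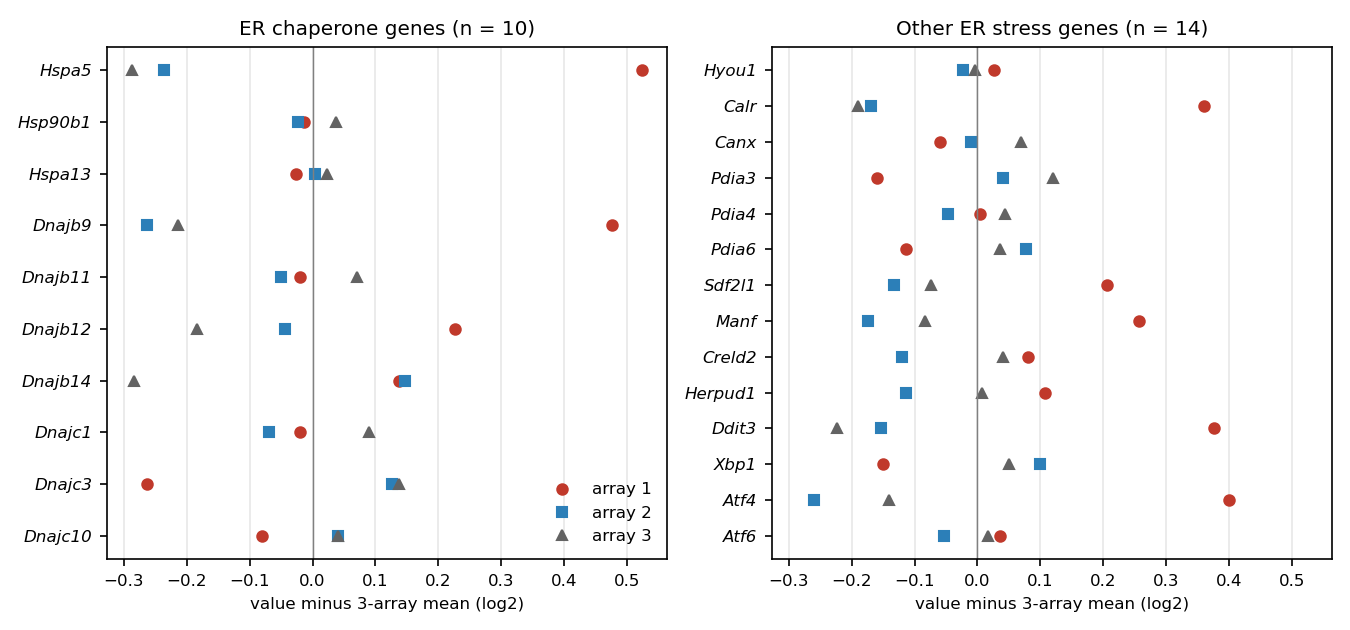
Value minus the 3-array mean (log2) on arrays 1, 2 and 3 for 10 ER chaperone genes (left) and 14 other ER stress genes (right). On array 1 Hspa5, Dnajb9, Calr, Ddit3 and Atf4 lie to the right, Dnajc3 to the left, and Hsp90b1, Hspa13 and Hyou1 near 0.

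Partners of cytosolic chaperones gave no common direction. Of 12 cochaperones, among them the member Hspbp1, 5 were highest and 6 lowest on array 1, and the list deviated by 0.04, -0.01 and -0.03 on arrays 1, 2 and 3. Bag1, an exchange factor of Hsp70, had 9.56, 9.17 and 9.21. Bag3, itself a target of heat shock factor 1, had 7.03, 6.64 and 6.59, below background on every array. Stip1, which links Hsp70 to Hsp90, had 10.63, 10.72 and 10.68, and Cdc37, which brings kinases to Hsp90, had 10.61, 10.83 and 10.86.

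Of the 17 members in no role list, 12 (70.6%) were lowest on array 1, against the 39.3% of all genes given above. Their mean deviation there was -0.09, and 9 of the 17 lay above background on every array. Dnajc14 had 9.32, 9.70 and 9.59, Dnajc16 had 8.33, 8.65 and 8.67 and Dnajc18 had 7.79, 8.12 and 8.09. Hspbp1, an exchange factor of Hsp70 also counted among the cochaperones, was highest on array 1 with 8.45, 8.23 and 8.07. Of all 83 members, 5 (6.02%) lay at least 0.3 under both other arrays on array 1, against 4.56% of all genes. Several members of this group lay near the background limit, such as Dnajb5 with 7.37, 7.60 and 7.48, Dnajc25 with 7.49, 7.37 and 7.36 and Dnajc4 with 7.51, 7.75 and 7.65. Hspa4l, a relative of Hspa4, was clear of it with 9.20, 9.32 and 9.37, and the small heat shock protein gene Hspb8 was below it with 6.02, 6.22 and 6.30.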

How the data were processed

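The authors deposited 1 log2 value for each probe set on each array. The unit follows from the range of the values, 1.6 to 14.94. The R package affy is named in the submitters' processing notes. Its version, the background correction, the normalization and the build of the array were not given in the sources used here. Per the labels' protocols, cells were sorted on beads and RNA was extracted with TRIzol, and the same text describes formaldehyde fixation without stating that it applies to the RNA. Replicates are cohorts of littermates. Genes were named from the platform's annotation, and all 83 members kept their symbols in a RefSeq gene table. The 6617 probe sets numbered below the first with a symbol were taken as controls and left out. Variance was tested with limma 3.58.1 (R 4.3.3) over the remaining 28939, a procedure also tested on simulated data. Tables were made with pandas 2.3.3 and numpy 2.4.6 under Python 3.11.15.

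The members and gene lists were chosen with earlier results of these data known. The rule for named genes took in every measured gene of the role lists, members with an unadjusted variance p under 0.05, the members with the largest and smallest SD or near the background limit, and, of other lists, the first 2 and those with such a p, but the text does not name all of these. Other named genes, such as Xbp1 and Cdc37, were chosen after their values were seen. The alternatives were other scalings, priors, probe sets, lists and limits, and leaving out each array. The number of arrays limits the precision, and with 1 group no test between conditions exists. Protein sequences were not used here.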

Additional observations from a re-analysis of the deposited data

How the results depend on the processing

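Quantile normalization, median centring, another list, another summary, another probe set and a filter on low values left the inducible minus constitutive difference on each array within 1 SD over arrays (0.058) of its value. Leaving out single arrays gave a range of that difference from 0.020 (without array 1) to 0.11. The count of members above background was between 50 and 59, and that of members highest on array 1 between 24 (of the 57 above background in the mean) and 35. The variance test called from 0 to 3 members when single arrays were left out: none without array 1, 1 without array 2 (Hspa5) and 3 without array 3 (Hspa5, Dnajb9 and Hspe1). In these 2-array fits the prior degrees of freedom were infinite, against 4.71 with all arrays, and 126 to 303 of all probe sets were called, against 6; the cause was not tested. A robust prior with no trend and keeping the control probe sets called 0 of all probe sets. The other priors, scalings and filters called 0 members, with 3 to 5 at an unadjusted p under 0.05. For 5 members, Dnaja1, Hsp90aa1, Hspa8, Hspb1 and Hspd1, the brightest probe set lies in number order among genes of another chromosome. No paired analysis was possible because there is only 1 group.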

Other observations

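Prefoldin, the complex that hands unfolded actin and tubulin to the cytosolic chaperonin, was measured by 6 genes, of which 5 lay above background on every array. Pfdn4 had 8.0, 7.16 and 7.14 on arrays 1, 2 and 3, above background on array 1 alone (limma variance test, unadjusted p = 0.00761, adjusted p = 0.960). The other 5 subunit genes had SDs from 0.06 to 0.17. Pfdn2 had 9.27, 9.53 and 9.60, lowest on array 1, and Pfdn1 had 8.58, 8.47 and 8.56. The chaperonin subunits that take over from prefoldin deviated by 0.03, -0.05 and 0.02 as a list.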
